A study of Homo sapiens with 12 samples.

Results

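The family of miR-148 and miR-152 comprises 3 human hairpins at separate loci, mir-148a, mir-148b and mir-152, and the family was taken as every line of the deposited table that belongs to one of them. These were 6 mature miRNAs, a 5p and a 3p arm for each hairpin, of 1277 mature miRNAs in the table after duplicate lines had been collapsed. The 3p arms, miR-148a-3p, miR-148b-3p and miR-152-3p, are the family proper, since they share 1 seed. Small RNAs were counted in 12 libraries of DROSHA-KO HCT116 cells, which come from a human colon carcinoma and lack DROSHA of their own by knockout. All cells received the plasmid pXC-NLS-DG4 and a pCK plasmid, which coded for DROSHA_belt_deletion, for DROSHA_m4 or for DROSHA wild type, or was the empty plasmid, with 3 libraries in each group. The labels give neither the m4 change nor the product of pXC-NLS-DG4. DROSHA came from a transfected plasmid and not from its own gene. The libraries held 132667 to 407461 reads in the table and 649 to 800 detected miRNAs each. Repeats are numbered in the labels without word on separate cultures, so p-values measure the spread between these samples, which may be technical.

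DROSHA is the nuclear RNase III enzyme that, with DGCR8, cuts the hairpin out of most primary miRNA transcripts, and Dicer then cuts off the loop in the cytoplasm. One strand of the remaining duplex, the guide, is retained by an Argonaute protein and finds its targets mainly through the seed, bases 2 to 8. In the family of miR-148 and miR-152 the guide lies on the 3p arm. The family is known for repressing the DNA methyltransferase DNMT1, and miR-148a and miR-152 have been described as lowered in colorectal and other gastrointestinal tumours.

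The 3p arms share their seed, shown in capitals, and differ mainly just behind it; the RefSeq sequences (GRCh38.p14) are printed to show how small the difference between the paralogs is.
hsa-miR-148a-3p: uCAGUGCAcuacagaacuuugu
hsa-miR-148b-3p: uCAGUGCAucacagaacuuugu
hsa-miR-152-3p: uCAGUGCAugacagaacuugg
Counted from 1 at the 5′ end, miR-148a-3p and miR-148b-3p are identical at 20 of 22 positions and differ by C9U and U10C, the base of miR-148a-3p given first. miR-148a-3p and miR-152-3p differ by C9U, U10G and U20G over 21 compared positions. No other mature miRNA among 2370 in the RefSeq table has the seed CAGUGCA. No other line of the deposited table held the same reads as any of the 6 family lines. How the counter treated reads that could belong to either paralog is not given in the sources used here.

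The hairpins, with the 3p arm in capitals, differ more than the mature arms do, in the loop and in the flanks.
hsa-mir-148a: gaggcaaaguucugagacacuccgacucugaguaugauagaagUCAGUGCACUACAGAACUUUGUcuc
hsa-mir-148b: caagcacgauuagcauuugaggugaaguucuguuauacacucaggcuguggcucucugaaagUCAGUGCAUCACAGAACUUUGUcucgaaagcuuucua
hsa-mir-152: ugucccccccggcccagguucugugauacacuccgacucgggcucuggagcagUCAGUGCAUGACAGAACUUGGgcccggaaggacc
MIR148A lies at chr7:25949919-25949986 on the minus strand and overlaps no other gene of GENCODE 29; the nearest protein-coding gene, NFE2L3, is 202254 bases away. MIR148B lies at chr12:54337216-54337314 on the plus strand, in an intron of COPZ1 and of the overlapping non-coding gene AC078778.2, on their strand. MIR152 lies at chr17:48037161-48037247 on the minus strand, in an intron of COPZ2 on the same strand. COPZ1 and COPZ2 code for the paralogous zeta subunits of the COPI coat, which carries vesicles between Golgi and endoplasmic reticulum.

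Cut to the same limits, from 2 bases before the shared GUUCUG of the 5p arm to the end of the 3p arm, the stem-loops were 59 nt (mir-148a), 60 nt (mir-148b) and 59 nt (mir-152) long. Their predicted minimum free energies (RNAfold) were -16.0 kcal/mol for mir-148a, -16.4 kcal/mol for mir-148b and -21.6 kcal/mol for mir-152. The predicted terminal loop was 13 unpaired nt in mir-148b, against 7 nt in mir-148a and 4 nt in mir-152. On the transcribed strand, the motif UGU, which is known from the apical part of many primary miRNA hairpins, was found between the arms of mir-148b and of neither other hairpin. UGU was found between the annotated arms in 249 of 739 hairpins with both arms annotated (33.7%). For the family the 5p arm was instead taken at a fixed length from the shared start, so the regions are not quite alike. These features describe the hairpins; their part in the levels below was not tested.

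miR-148a-3p was by far the most abundant member in every library, and its mean exceeded that of the empty plasmid 39.95-fold in the belt deletion group, 8.53-fold in the m4 group and 22.3-fold in the wild type group. Levels are given as scaled reads, the counts divided by a size factor from miRNAs that mature without DROSHA. miR-148a-3p stood at 3885, 4842 and 2885 scaled reads in belt deletion replicates 1, 2 and 3. It stood at 455, 944 and 1081 scaled reads with m4, at 2602, 2263 and 1605 with wild type, and at 123.3, 96.7 and 70.6 with the empty plasmid. None of the 4 groups overlapped another, and their order was belt deletion, wild type, m4 and empty plasmid. How many of the other miRNAs were separated in this way was not counted. By its group mean miR-148a-3p was the 9th most abundant of the 1277 miRNAs with the belt deletion, the 14th with m4, the 15th with wild type and the 37th with the empty plasmid.

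miR-148b-3p, the product of the COPZ1 intron, had another order of groups, with wild type above the belt deletion. It stood at 56.8, 98.4 and 59.3 scaled reads with the belt deletion, and at 21.3, 20.2 and 34.3 with m4. With wild type it stood at 246, 198 and 193 scaled reads, and with the empty plasmid at 6.73, 8.98 and 6.60, which were 9, 13 and 10 reads. No 2 groups overlapped here either, and the share of other miRNAs with such a separation was not counted. Its mean exceeded that of the empty plasmid 9.62-fold in the belt deletion group, 3.40-fold in the m4 group and 28.5-fold in the wild type group.

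**Figure D1:**
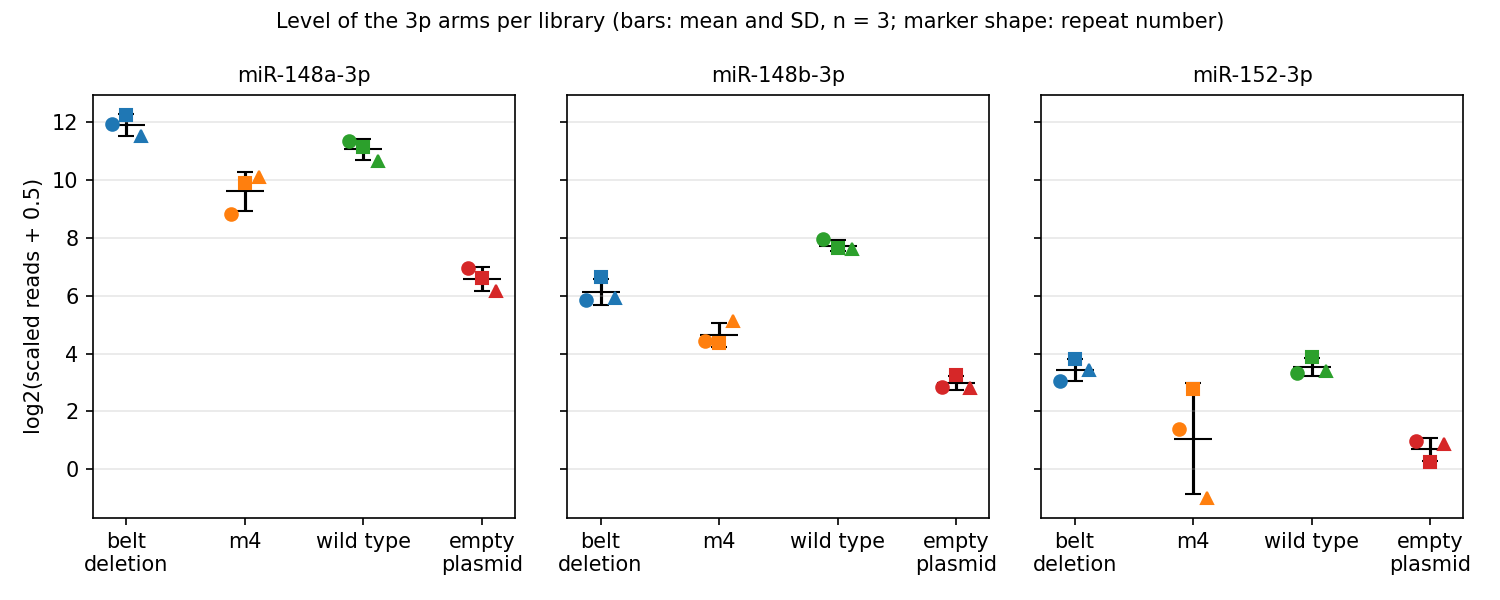
Level of each 3p arm per library on the log2(scaled reads + 0.5) scale, for the belt deletion, m4, wild type and the empty plasmid; points are libraries, bars the mean and SD (n = 3). miR-148a-3p is highest with the belt deletion (3885, 4842 and 2885 scaled reads) and miR-148b-3p with wild type (246, 198 and 193), while miR-152-3p lies near the limit of detection in the m4 and empty plasmid libraries.

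The comparisons with the empty plasmid ask which miRNAs return when a form of DROSHA is supplied. In edgeR's quasi-likelihood test over 310 miRNAs, with Benjamini-Hochberg adjustment over all of them, miR-148a-3p rose with each form. Its log2 change was 5.32 with the belt deletion (SE 0.40, adjusted p = 2.90e-20), 3.09 with m4 (SE 0.36, adjusted p = 1.92e-11) and 4.48 with wild type (SE 0.38, adjusted p = 9.20e-18). miR-148b-3p rose as well, by 3.24 with the belt deletion (SE 0.41, adjusted p = 9.03e-11), 1.74 with m4 (SE 0.41, adjusted p = 0.000319) and 4.81 with wild type (SE 0.43, adjusted p = 6.85e-17). Such rises were common: 42.9% of the 310 miRNAs were called higher with the belt deletion (43.2% in either direction), 41% with m4 (41.9% in either direction) and 42.6% with wild type (43.2% in either direction). Under TMM scaling more were called lower, with 114 higher and 47 lower for the belt deletion, 98 and 12 for m4, and 125 and 88 for wild type. The median log2 change over all of them was 0.728, 0.831 and 0.723 for the belt deletion, m4 and wild type. Among the 310 changes, ordered from the highest, miR-148a-3p ranked 22nd with the belt deletion, 24th with m4 and 62nd with wild type. miR-148b-3p ranked 87th, 95th and 44th in those comparisons, which share the empty plasmid libraries.

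The comparison of each mutant with wild type asks how the altered proteins differ in what they restore. With m4 both paralogs were lower than with wild type, miR-148b-3p more so. miR-148b-3p fell by 3.07 on the log2 scale (SE 0.39, adjusted p = 3.36e-10 by edgeR), 8.39-fold, and ranked 24th from the lowest of 310. The log2 change of miR-148a-3p was -1.38 (SE 0.34, adjusted p = 0.000408 by edgeR), 2.61-fold lower with m4. In the same comparison 37.7% of miRNAs were called, 34.2% lower and 3.55% higher, and the median was -0.191. Scaling to the total count raised the median of all miRNAs in this comparison by 1.05, with 133 called higher and 60 lower. On that scale miR-148a-3p was no longer called (-0.38, edgeR adjusted p = 0.235), whereas miR-148b-3p was.

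With the belt deletion the paralogs went apart. miR-148b-3p fell, with 71.5 ± 23.3 scaled reads against 212 ± 29.2 with wild type (SD, n = 3 each), a log2 change of -1.57 (SE 0.36, adjusted p = 0.000781 by edgeR) that ranked 18th from the lowest of 310. miR-148a-3p averaged 3871 ± 979 scaled reads with the belt deletion and 2156 ± 507 with wild type (SD, n = 3 each). Its log2 change of 0.84 (SE 0.33) ranked 39th from the highest and missed the threshold (adjusted p = 0.0803 by edgeR). Every belt deletion library lay above every wild type library for miR-148a-3p, and below for miR-148b-3p. The share of the 310 miRNAs with such a separation was not counted. For all miRNAs the median was 0.0368, and 12.6% were called, 9.35% lower and 3.23% higher. The call on miR-148a-3p depended on the scaling, as its change was 0.84 with adjusted p = 0.0101 under TMM, 0.83 with adjusted p = 0.013 under DESeq2 size factors and 0.89 with adjusted p = 0.0272 under the total count, all by edgeR.

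**Figure D2:**
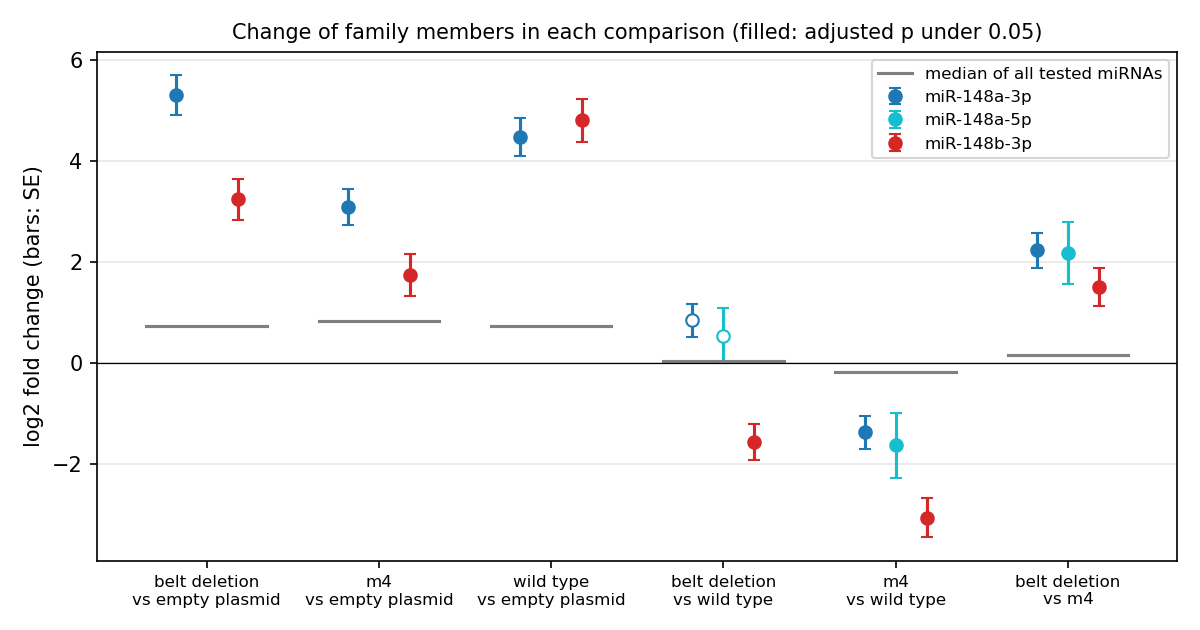
Log2 fold changes with their SE for the family miRNAs in the edgeR fit (belt deletion, m4 and wild type against the empty plasmid, each mutant against wild type, and belt deletion against m4; miR-148a-5p, at 2 reads in the empty plasmid group, is left out there); filled points have an adjusted p under 0.05 and grey lines are the median of the 310 miRNAs tested. Against wild type the belt deletion has a change of 0.84 for miR-148a-3p and of -1.57 for miR-148b-3p, on opposite sides of the median of 0.0368. miR-148a-5p passed the filter on low counts through the belt deletion group, so its points, filled or open, are description only.

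Set against m4, the belt deletion gave higher levels of both paralogs. The log2 change was 2.23 for miR-148a-3p (SE 0.34, adjusted p = 1.11e-07 by edgeR), 4.68-fold, and 1.5 for miR-148b-3p (SE 0.38, adjusted p = 0.00100 by edgeR), 2.83-fold. In this comparison 27.1% of miRNAs were called, 25.8% of all higher, and the median was 0.144; with the total count 47 were called higher and 121 lower. The call on miR-148b-3p was lost with 2 other scalings, the total count (0.47, edgeR adjusted p = 0.315) and the sum of the DROSHA-independent miRNAs (1.12, edgeR adjusted p = 0.119).

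The ratio of the paralogs within a library needs no scaling between libraries. For each read of miR-148b-3p there were 68.4, 49.2 and 48.6 reads of miR-148a-3p in the belt deletion libraries, and 21.4, 46.7 and 31.5 in the m4 libraries. The ratio was 10.6, 11.4 and 8.33 with wild type and 18.3, 10.8 and 10.7 with the empty plasmid. Both mutants thus lay above wild type and above the empty plasmid in every library, the belt deletion also above m4, while wild type and the empty plasmid overlapped.

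With 0.5 read added to each count, the mean log2 ratio was 5.76 ± 0.28 with the belt deletion, 4.95 ± 0.57 with m4, 3.32 ± 0.24 with wild type and 3.62 ± 0.44 with the empty plasmid (SD, n = 3 each). Relative to wild type the ratio was greater by a factor of 5.44 for the belt deletion (log2 difference 2.44, SE 0.21) and of 3.09 for m4 (1.63, SE 0.35). Against the empty plasmid the factor was 4.42 for the belt deletion and 2.51 for m4, and between belt deletion and m4 it was 1.76. Each of these 5 differences had a two-sided exact permutation p of 0.1, the smallest that 3 against 3 libraries can give, and 0.258 after adjustment over the 31 ratio tests. Wild type and the empty plasmid differed by -0.30 (SE 0.29, exact permutation p = 0.6). An exact permutation test over all 4 groups, chosen after the values had been seen, gave p = 0.00039 (adjusted p = 0.00156 over 4 such tests). It compares the 12 libraries as a whole and does not say which groups differ. With the 9 libraries of any DROSHA form set against the 3 of the empty plasmid, the ratio overlapped (log2 difference 1.06, SE 0.45, exact permutation p = 0.164).

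**Figure D3:**
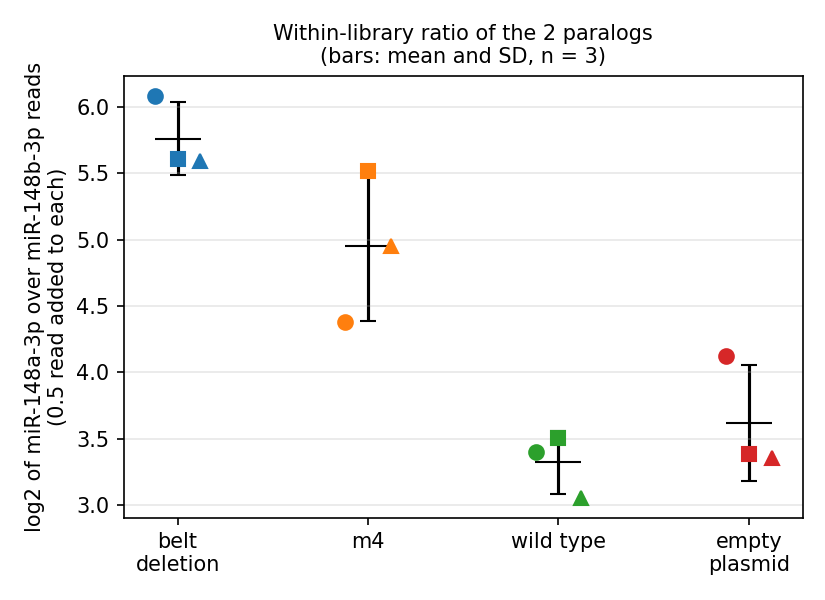
Log2 ratio of miR-148a-3p to miR-148b-3p reads within each library, with 0.5 read added to each count; points are libraries of the belt deletion, m4, wild type and the empty plasmid, bars the mean and SD (n = 3). The ratio averages 5.76 with the belt deletion and 4.95 with m4, above all libraries of wild type (3.32) and the empty plasmid (3.62).

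miR-152-3p, the product of the COPZ2 intron, was the rarest 3p arm, with 71 reads in the 12 libraries together, against 19352 of miR-148a-3p and 806 of miR-148b-3p. It had 9, 11 and 12 reads with the belt deletion, 2, 7 and 0 with m4, 8, 8 and 9 with wild type and 2, 1 and 2 with the empty plasmid. It did not pass the filter on low counts and has no place in the test over 310 miRNAs. On the log2(scaled reads + 0.5) scale it was higher than with the empty plasmid by 2.73 with the belt deletion (SE 0.32) and by 2.83 with wild type (SE 0.29). Libraries did not overlap in either comparison, and such separations were not counted over the other miRNAs. Both differences had an exact permutation p of 0.1, the smallest possible (0.15 adjusted over the 6 comparisons). The difference between m4 and the empty plasmid was 0.36 (SE 1.13, exact permutation p = 0.8), and 1 of the 3 m4 libraries had no read. Every m4 library lay below every wild type library, by -2.47 on average (SE 1.12, exact permutation p = 0.1). That difference was -1.44 without m4 replicate 3, the library with no read, and -3.34 without m4 replicate 2, and with the total count the groups overlapped (-1.74, exact permutation p = 0.2). The libraries of belt deletion and wild type overlapped; their means differed by -0.10 (SE 0.28, exact permutation p = 0.8). In an edgeR fit without the filter, over all 1277 miRNAs, miR-152-3p was called higher with the belt deletion (3.04, adjusted p = 0.000755) and with wild type (3.13, adjusted p = 0.000568) than with the empty plasmid. That fit called 164 of the 1277 miRNAs higher with the belt deletion and 198 with wild type. The same edgeR fit did not call miR-152-3p for m4 against wild type (-1.80, adjusted p = 0.113) or for belt deletion against m4 (1.72, adjusted p = 0.186).

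Relative to miR-152-3p, too, miR-148b-3p was lower with the belt deletion than with wild type. This ratio uses the same miR-148b-3p reads as the values above. There were 7.22, 7.18 and 5.83 reads of miR-148b-3p for each read of miR-152-3p with the belt deletion, and 26, 13.9 and 19.1 with wild type. The log2 difference was -1.48 (SE 0.28, exact permutation p = 0.1, the smallest possible, and 0.258 adjusted over the 31 ratio tests). The ratio of miR-148a-3p to miR-152-3p went the other way, greater by a factor of 1.95 for the belt deletion than for wild type (log2 difference 0.96, SE 0.35, exact permutation p = 0.1, adjusted 0.258). Over all 4 groups neither ratio to miR-152-3p passed, at a depth of 0 to 12 reads of miR-152-3p per library. The exact permutation p was 0.289 for miR-148b-3p (adjusted 0.385) and 0.0647 for miR-148a-3p (adjusted 0.129).

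The 3p arm held nearly all reads of each hairpin. Over the 12 libraries the 5p arm had 107 of 19459 reads of mir-148a (0.55%, 95% Wilson interval 0.455% to 0.664%), 26 of 832 reads of mir-148b (3.13%, 2.14% to 4.54%) and 1 of 72 reads of mir-152 (1.39%, 0.246% to 7.46%). These intervals cover counting error only. The 1 read of miR-152-5p was in an empty plasmid library. In the 11 libraries with at least 10 reads of both hairpins, the 5p share was higher in mir-148b than in mir-148a in 8, by 1.90 percentage points on average (exact sign-flip permutation p = 0.0117, two-sided, a test chosen after the values had been seen). The other 3 libraries had no 5p read of mir-148b.

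For mir-148a the 5p share was 0.534% with the belt deletion (95% Wilson interval 0.418% to 0.683%), 0.518% with m4 (0.297% to 0.903%), 0.608% with wild type (0.427% to 0.867%) and 0.483% with the empty plasmid (0.133% to 1.74%), each over the 3 libraries of the group. An exact permutation test of the log2 ratio of 5p to 3p reads over the 4 groups gave p = 0.99. The share of mir-148b was 3.60% with the belt deletion (1.84% to 6.95%), 2.82% with m4 (0.776% to 9.70%) and 3.16% with wild type (1.95% to 5.06%). With the empty plasmid none of its 32 reads was on the 5p arm, which allows a share of up to 9.38% if 3 reads are taken as the limit of a count of 0, and up to 10.7% by the Wilson interval. The log2 ratio of 5p to 3p reads of mir-148b was 0.42 higher with the belt deletion than with wild type (SE 0.37, exact permutation p = 0.4). A difference in arm use between groups was thus not detectable at this depth.

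**Figure D4:**
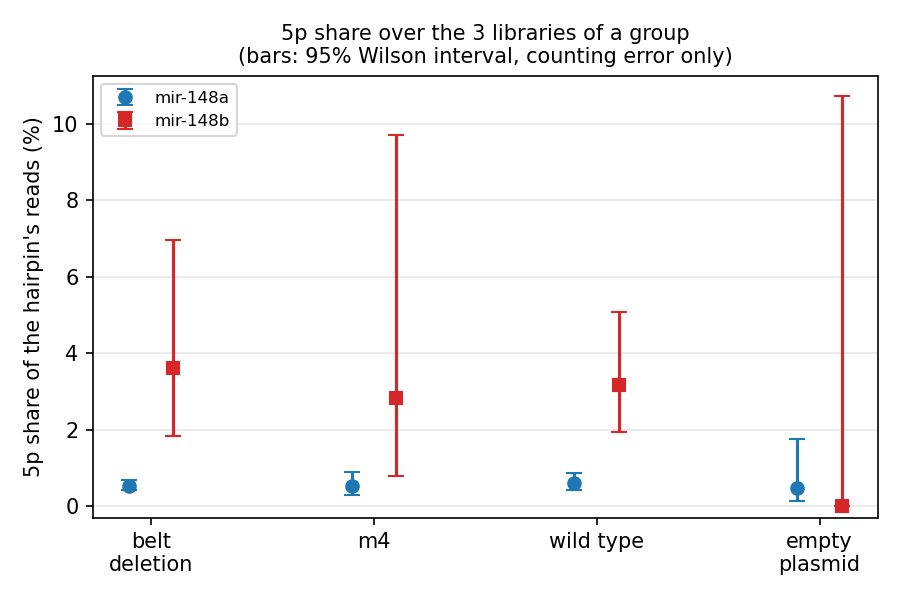
Share of the 5p arm in the reads of mir-148a and mir-148b, in percent, over the 3 libraries of each group, with 95% Wilson intervals for counting error. mir-148a stays between 0.483% and 0.608%, and mir-148b lies at 2.82% to 3.60% in the 3 groups with DROSHA and at 0 of 32 reads with the empty plasmid.

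The passenger arms had few reads but their own sequences. miR-148a-5p had 28, 12 and 23 reads with the belt deletion, 6, 3 and 3 with m4, 11, 12 and 7 with wild type and 0, 0 and 2 with the empty plasmid. In fits of only the 2 groups compared, miR-148a-5p passed the filter on low counts just where the belt deletion, its highest group, took part. Its edgeR values below therefore rest on a filter passed through that group and are given as description only. Between belt deletion and wild type its scaled reads overlapped (log2 change 0.54, SE 0.54, adjusted p = 0.565 by edgeR). Its fall with m4 against wild type (-1.64, SE 0.65, adjusted p = 0.0397 by edgeR) was lost without either of m4 replicates 2 and 3 or wild type replicates 1 and 2 (adjusted p = 0.0741 to 0.206 by edgeR), and under 5 other settings. These were TMM (-1.24), DESeq2 size factors (-1.41), the total count (-0.60), the sum of the DROSHA-independent miRNAs (-1.50) and no filter (-1.64), with edgeR adjusted p of 0.0716 to 0.442. Against m4 it was higher with the belt deletion (2.18, SE 0.61, adjusted p = 0.00308 by edgeR), a call lost with the total count (1.19, edgeR adjusted p = 0.117) and with the sum of the DROSHA-independent miRNAs (1.83, edgeR adjusted p = 0.060). miR-148b-5p had 3, 2 and 3 reads with the belt deletion, 1, 0 and 1 with m4, 7, 2 and 7 with wild type and 0 with the empty plasmid, and was not tested.

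Of 30 conserved miRNAs listed for a guide on the 3p arm, the arm the family uses, all were in the table and 23 were tested. Against the empty plasmid 21 of 23 were called higher with the belt deletion (median 3.47), 23 of 23 with m4 (median 2.21) and 20 of 23 with wild type (median 4.67), where 42.9%, 41% and 42.6% of all 310 miRNAs were called higher and the medians over all were 0.728, 0.831 and 0.723. With m4 against wild type 18 of 23 were called lower (median -1.44), against 34.2% of all 310 (median -0.191). With the belt deletion against wild type 6 of 23 were called lower and 1 higher (median -0.424), against 9.35% lower and 3.23% higher of all 310 (median 0.0368). The 1 that rose was miR-27b-3p, from the miR-23b cluster, with a change of 1.08 (adjusted p = 0.0138 by edgeR) and levels of 3238 scaled reads with the belt deletion and 1532 with wild type. miR-221-3p, which is co-transcribed with miR-222 and targets the cell cycle inhibitor CDKN1B, was among those that fell (-1.89, adjusted p = 5.38e-06 by edgeR). The abundant miR-222-3p and miR-378a-3p had changes of 0.04 and -0.05 there (edgeR adjusted p = 0.958 and 0.948).

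The group of miR-130a, miR-130b, miR-301a, miR-301b and miR-454, whose seed overlaps that of the family by a shift of 1 base, was close to absent. All 5 members were listed and none passed the filter; miR-130b-3p, which had the highest group mean of the 5, averaged 0.583 scaled reads with the belt deletion, 0 with m4, 2.52 with wild type and 0.479 with the empty plasmid.

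For scale, the divergence of the paralogs was set beside all pairs of tested miRNAs that share bases 2 to 8 in the RefSeq table and reach a group mean of 50 scaled reads. There were 62 such pairs, most of them within let-7 and miR-98, so the median and the ranks rest mainly on that 1 family. A few were pairs of miR-320 members, which mature without DROSHA. The pairs share members and are not independent, and some share a seed without being paralogs. How reads of near-identical miRNAs were counted is as uncertain for them as for the family. For the belt deletion against wild type the log2 changes of miR-148a-3p and miR-148b-3p differed by 2.42, the 5th largest difference of the 62, where the median pair differed by 0.499. The 4 pairs that differed more, named after their values were seen, were miR-128-3p with miR-216a-3p (4.80), miR-1268a with miR-1268b (4.09), miR-181a-5p with miR-181b-5p (3.82) and miR-26a-5p with miR-26b-5p (2.49). In the other comparisons the family pair was nearer to the middle. Its difference ranked 15th for the belt deletion against the empty plasmid (2.08, median 0.973), 18th for m4 against the empty plasmid (1.35, median 0.781) and 20th for m4 against wild type (1.69, median 1.12). For wild type against the empty plasmid it ranked 50th (0.338, median 0.866), and for belt deletion against m4 36th (0.727, median 0.870).

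**Figure D5:**
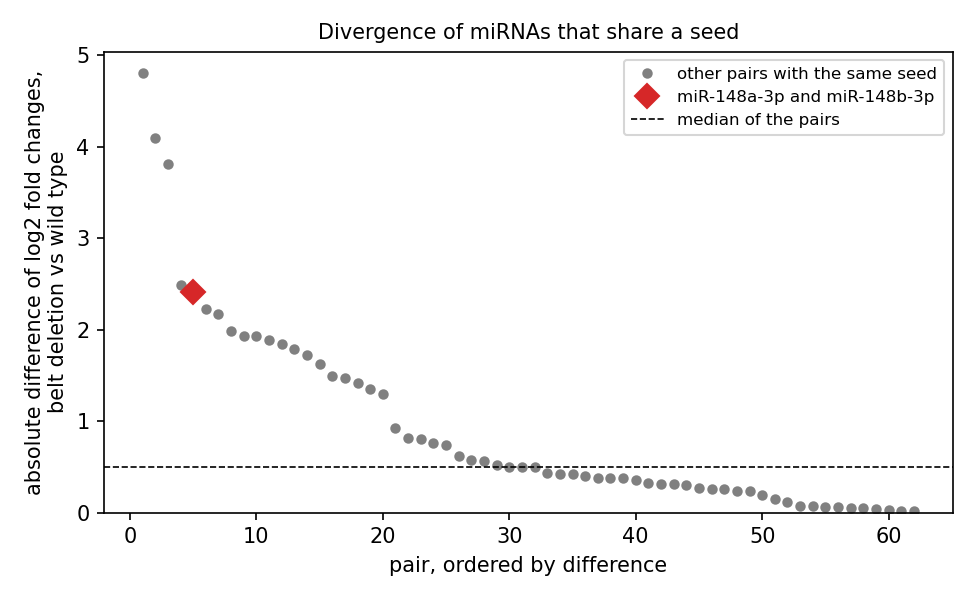
Absolute difference between the log2 fold changes (belt deletion against wild type) of 62 pairs of miRNAs that share a seed, ordered from the largest; the diamond is miR-148a-3p with miR-148b-3p and the dashed line the median. The family pair differs by 2.42, the 5th largest, and the median pair by 0.499.

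The profiles closest to each member were found by the root mean square difference of centred log2(scaled reads + 1) over the 12 libraries, among miRNAs with a mean of at least 50 scaled reads. For miR-148a-3p these were miR-1307-3p (0.332), miR-222-3p (0.422) and miR-183-5p (0.438), while miR-148b-3p lay at 1.06. For miR-148b-3p they were miR-93-5p (0.362), miR-151a-3p (0.362) and miR-30e-5p (0.384). The belt deletion and wild type libraries were among those that chose these profiles, so changes like those of the member were built into the choice. For the belt deletion against wild type, miR-93-5p, miR-151a-3p and miR-30e-5p had log2 changes of -1.14, -1.37 and -2.26. Those of miR-1307-3p, miR-222-3p and miR-183-5p were 0.73, 0.04 and 0.01. The nearest profiles to miR-152-3p were less close, miR-744-5p (0.837), let-7a-5p (0.875) and miR-423-5p (0.903). These are descriptions over libraries that share their group, and depth sets how close a rare miRNA can come.

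Of 22 miRNAs listed as maturing without DROSHA, 15 were tested. Most of these belong to the features that set the size factors, so a small number of calls among them was largely fixed by the scaling. Only miR-1227-3p, miR-1228-5p, miR-1229-3p and miR-1236-3p lie outside those features. Against the empty plasmid 1 of the 15 was called higher with the belt deletion, 2 with m4 and 0 with wild type, and 0 were called lower. Of all 310 miRNAs 42.9%, 41% and 42.6% were called higher there. DROSHA mRNA is not measured by small RNA counts, so the knockout and the plasmids were not checked directly. Of 9 miRNAs listed for intestinal epithelium and colon carcinoma all were in the table and 6 passed the filter, led by miR-21-5p (2039 to 80431 scaled reads over the groups). The others that passed were far lower: miR-200c-3p (45.1 to 107), miR-200b-3p (26.4 to 85.6), miR-200a-3p (15.7 to 37.4), miR-192-5p (2.58 to 26.5) and miR-429 (5.72 to 17.1). miR-194-5p, miR-215-5p and miR-141-3p did not pass and reached at most 2.65, 6.16 and 3.37 scaled reads. Of the markers of other cells, miR-126-3p of endothelium, at 401 scaled reads with the belt deletion, 149 with m4, 391 with wild type and 9.38 with the empty plasmid, was lowest with the empty plasmid, as the 3p arms of the family were, and its part in the family's values was not tested. Liver miR-122-5p (45.2 to 78.3 scaled reads over the groups), smooth muscle miR-143-3p (111 to 184) and neuronal miR-9-5p (20.1 to 71.7) were present, while miR-145-5p, miR-1-3p and miR-451a stayed under 3 scaled reads in every group. miR-124-3p, miR-133a-3p, miR-142-3p and miR-223-3p had no line in the table.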

How the data were processed

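The values deposited are raw counts of reads for each mature miRNA on each hairpin in 12 small RNA libraries; blank cells were read as 0. Per the labels' protocols, RNA of 19 to 24 nt was selected on a 15% gel from 10 µg of total RNA and cloned with a NEBNext small RNA kit. Tools named, per the submitters' processing notes, are Bowtie2 and cutadapt, with hg38; the counter, the annotation and the use of strand are not given in the sources used here. For each mature name its deepest line was kept, and 9 pairs of names whose reads differed by at most 5 reads or 5% per library were merged; no family line was affected. Size factors were median ratios over 5 DROSHA-independent features (miR-1226, miR-1224, miR-877, miR-484 and the summed miR-320), each holding 20 reads or more per library. Replicates of a group differed by more than sampling noise (chi-square per degree of freedom 7.36 to 56.8). edgeR 4.0.16 (R 4.3.3, quasi-likelihood, robust, filterByExpr, all 12 libraries, no covariates) gave log2 changes, with the SE taken as the absolute change over the root of its F statistic; a call is an adjusted p under 0.05. The fit was also run on simulated data with the same spread for every miRNA and known size factors. That run does not bear on the spread of these replicates or on the scaling. DESeq2 1.42.0 was an alternative. Ratios used a pseudocount of 0.5 read and exact permutation tests (SciPy 1.17.1), 1-sample shares Wilson intervals; arm ratios needed at least 10 reads per library. Stem-loops were folded with RNAfold 2.7.2. Named miRNAs were the family's 6, abundant members of the lists and the 3 most similar profiles per member. The members and lists were chosen with earlier results of these data known.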

Additional observations from a re-analysis of the deposited data

How the results depend on the processing

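The fall of miR-148b-3p with each mutant against wild type, and the rises of miR-148a-3p and miR-148b-3p over the empty plasmid, kept their direction and call under all alternatives run, which were TMM, DESeq2 size factors, the total count, the sum of the reference, the reference without miR-320, the DESeq2 test, no filter, 2 groups only, copies summed, the replicate block and each library left out. The exceptions among the other 3p values follow. miR-148a-3p, belt deletion against wild type (0.84, not called), was called under TMM (0.84), DESeq2 size factors (0.83), the total count (0.89) and the fit of the 2 groups only (0.84, adjusted p = 0.0429). Under the total count the calls on miR-148a-3p for m4 against wild type (-0.38) and on miR-148b-3p for belt deletion against m4 (0.47) were lost; the call on miR-148b-3p was also lost with the sum of the reference (1.12). The cause was not tested. miR-152-3p was called without the filter for belt deletion (3.04) and wild type (3.13) against the empty plasmid. There 164 and 198 of all 1277 miRNAs were called higher.

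The number of miRNAs called moved for wild type against the empty plasmid (213 under TMM, of which 88 fell, against 134), belt deletion against m4 (168 under the total count, of which 121 fell, against 84) and m4 against wild type (193 under the total count, of which 133 rose, against 117). TMM moved the median of all miRNAs by -0.790 for belt deletion, -0.427 for m4 and -0.798 for wild type against the empty plasmid. The labels do not say whether the repeat numbers pair the libraries. Deviations of same-numbered libraries correlated at -0.475 to 0.357, those of other-numbered libraries at -0.434 to 0.552. Of 12 libraries 4 lay closer to their own number. With 3 libraries a group these values cannot exclude a shared batch. The fit with the replicate block called 133, 130 and 134 miRNAs for belt deletion, m4 and wild type against the empty plasmid, with no change of call for the 3p arms.

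Leaving out 1 library at a time changed no call on miR-148a-3p or miR-148b-3p in the 6 comparisons; for belt deletion against wild type the log2 change ranged over 0.65 to 1.02 for miR-148a-3p and -1.87 to -1.43 for miR-148b-3p. The difference in the log2 ratio of miR-148a-3p to miR-148b-3p stayed at 2.28 to 2.54 for belt deletion against wild type. For m4 against wild type it stayed at 1.35 to 1.91.

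Some differences changed sign when 1 library was left out, up to one of 1.08. These were, as ratios to miR-152-3p, miR-148a-3p for m4 against wild type (0.93, range -0.23 to 1.58) and belt deletion against m4 (-0.62 to 1.19), and miR-148b-3p for m4 against empty (1.08, range -0.078 to 2.02), m4 against wild type (-0.70, range -1.86 to 0.24) and belt deletion against m4 (-0.78, range -1.72 to 0.38). The difference in the log2 5p to 3p ratio of mir-148a ranged over -0.80 to 0.67 (belt deletion against empty) and -0.75 to 0.86 (m4 against empty). For wild type against empty it ranged over -0.49 to 0.98, and was -0.64 with a pseudocount of 1 read. It ranged over -0.51 to 0.042 (belt deletion against wild type), -0.79 to 0.29 (m4 against wild type) and -0.60 to 0.48 (belt deletion against m4). That of mir-148b ranged over -0.53 to 0.33 (belt deletion against m4). The difference in the log2 level of miR-152-3p ranged over -0.51 to 1.39 (m4 against empty) and -0.29 to 0.087 (belt deletion against wild type). With 0 to 12 reads of miR-152-3p and 0 to 28 reads of each 5p arm per library, depth limits these values.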
